A study of Mus musculus with 3 samples.

Results

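The 9 cathepsin genes Ctsa, Ctsb, Ctsc, Ctsd, Ctsh, Ctsk, Ctsl, Ctss and Ctsz were followed through 3 cultures of mouse stem cells, with 1 sample per culture. They were taken by name, with earlier results of these data known, and make up 9 of the 27886 genes listed in any of the 3 count tables. Of these, 8 were listed in the mESC table, 8 in the CPCC table and all 9 in the CB table. Ctss was not listed in mESC and Ctsk was not listed in CPCC. A table lists only genes that reached at least 1 count in some cell, so no level is given for a gene that a table leaves out.

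All cultures came from male F1 embryonic stem cells of the cross C57BL/6 x CAST/EiJ, with no transgene or knockout stated. The mESC group (215 cells) are the pluripotent starting cells kept in the inhibitor medium with LIF that holds them in the naive state. Both derived cultures went through cell aggregates kept in medium with ascorbic acid. For the CPCC group (175 cells), cardiac precursor cultures, the resulting embryoid bodies were dissociated and passaged with EGF and Fgf2, and for the CB group (232 cells) the aggregates stayed in the ascorbic acid medium until beating cardiac bodies could be picked. Single cells were captured on microfluidic chips and read as full-length cDNA. The column names carry 3 different prefixes in mESC, 2 in CPCC and 3 in CB. They are taken here as the sequencing pools of the methods, which the column names do not state. By the study's methods each culture drew on several clones, and libraries of the same chip went into the same pool. Some pools were later merged, so differences between pools may include those between chips. The mESC label speaks of a triplicate, but which pool came from which culture or clone is not given in the sources used here. Pools are therefore shown as a measure of spread and not as replicates, and with 1 sample per group no test between cultures was possible.

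The labels were compared with marker genes. Each of the 3 mESC clusters had all 10 pluripotency markers in over 50% of its cells, as did 1 CPCC cluster of 66 cells. None of the 10 cardiomyocyte markers reached this share in any CPCC or CB cluster, although the labels call the CB cells mature cardiac cells. The median cell had 1528316 counts in mESC, 1437414 in CPCC and 1397869 in CB. No column name was shared between the tables, and no cells had identical values.

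Cathepsins are proteases that are made as inactive precursors, sent to the lysosome and activated by its acid pH. Ctsd is an aspartic protease and Ctsa a serine carboxypeptidase that also protects partner enzymes in the lysosome. The others are papain-like cysteine proteases, held in check outside the lysosome by cystatins. Ctsb and Ctsl are found in most tissues, Ctss is known from antigen-presenting cells and macrophages, and Ctsk is best known from osteoclasts, where it degrades collagen.

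Ctsk (chr3:95499256-95509362, plus strand, GRCm38) and Ctss (chr3:95526786-95556403, plus strand) are neighbours in the genome, with 17423 bases and 0 annotated genes between them. On the plus strand lie also Ctsa (chr2:164832873-164841032), Ctsb (chr14:63122462-63145923), Ctsc (chr7:88278085-88310888) and Ctsh (chr9:90054152-90076089). On the minus strand lie Ctsd (chr7:142375911-142388038), Ctsl (chr13:64359337-64370890) and Ctsz (chr2:174427493-174439039). The promoters below are from the RefSeq set on GRCm38.p6 and run from 250 bases before to 50 bases after the start that RefSeq gives. The gene positions above are those of GENCODE, whose starts are the same for Ctss, Ctsc and Ctsz, while the RefSeq start lies 46 bases upstream for Ctsk, 211 downstream for Ctsd, 370 downstream for Ctsl, and 1 upstream and 900 downstream for the 2 starts of Ctsa. They are shown because the adjacent pair had different patterns in these cultures, and because 4 of them hold a match to 1 of 2 motifs searched on both strands. The motif TCACGTGA is the core of the lysosomal CLEAR element bound by Tfeb, and GAGGAAGT is a PU.1-type motif of the factor encoded by Spi1. Capitals mark a match. The windows are chr3:95526536-95526835 for Ctss, chr3:95498960-95499259 for Ctsk, chr7:88277835-88278134 for Ctsc, chr7:142387778-142388077 on the minus strand for Ctsd, and chr2:164833523-164833822 for the second annotated start of Ctsa.

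Ctss: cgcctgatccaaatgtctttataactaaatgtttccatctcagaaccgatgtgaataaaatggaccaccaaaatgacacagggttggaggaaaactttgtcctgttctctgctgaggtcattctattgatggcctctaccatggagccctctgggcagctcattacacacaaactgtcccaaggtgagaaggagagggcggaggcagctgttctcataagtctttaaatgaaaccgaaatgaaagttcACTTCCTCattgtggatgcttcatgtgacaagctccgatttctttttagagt
Ctsk: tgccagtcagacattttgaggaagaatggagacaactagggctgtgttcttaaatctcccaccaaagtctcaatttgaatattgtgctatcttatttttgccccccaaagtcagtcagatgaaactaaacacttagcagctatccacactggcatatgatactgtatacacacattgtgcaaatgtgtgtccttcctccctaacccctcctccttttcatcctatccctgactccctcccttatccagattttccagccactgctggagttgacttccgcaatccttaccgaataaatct
Ctsc: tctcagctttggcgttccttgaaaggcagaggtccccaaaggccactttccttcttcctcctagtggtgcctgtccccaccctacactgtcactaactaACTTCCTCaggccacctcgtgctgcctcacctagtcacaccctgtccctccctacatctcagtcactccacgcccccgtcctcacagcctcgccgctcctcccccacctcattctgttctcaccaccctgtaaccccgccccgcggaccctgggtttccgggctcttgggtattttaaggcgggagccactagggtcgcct
Ctsd: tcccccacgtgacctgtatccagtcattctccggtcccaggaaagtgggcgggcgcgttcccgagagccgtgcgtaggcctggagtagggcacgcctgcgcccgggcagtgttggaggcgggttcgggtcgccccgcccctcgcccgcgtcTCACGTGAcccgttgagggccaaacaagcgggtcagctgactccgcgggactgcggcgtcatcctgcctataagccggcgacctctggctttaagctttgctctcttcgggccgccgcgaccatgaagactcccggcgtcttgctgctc
Ctsa: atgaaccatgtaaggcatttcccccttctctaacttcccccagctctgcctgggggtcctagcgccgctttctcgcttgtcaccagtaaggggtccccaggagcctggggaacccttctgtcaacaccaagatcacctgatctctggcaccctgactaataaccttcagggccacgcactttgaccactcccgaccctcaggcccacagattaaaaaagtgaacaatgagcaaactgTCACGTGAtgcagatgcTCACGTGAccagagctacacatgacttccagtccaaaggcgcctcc

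GAGGAAGT was read on the reverse strand as ACTTCCTC, beginning 2 bases before the RefSeq start of Ctss and 151 bases before that of Ctsc. TCACGTGA began 99 bases before the RefSeq start of Ctsd, which is inside the gene as GENCODE draws it, and, in Ctsa, 13 bases before and 4 bases after the start. Among 32851 promoters of this length, 0.974% held TCACGTGA and 3.20% held GAGGAAGT. Matched by symbol were 8 promoters of 7 members, all but Ctsb and Ctsh, of which Ctsk, Ctsl, Ctsz and the first start of Ctsa had neither run of letters. A match describes the letters and does not show that a factor binds.

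Levels are given as CPM, the counts of a gene per 1000000 counts of all genes of the same cells. Summed over the 7 members listed in all tables, they came to 1236 CPM for mESC, 5142 for CPCC and 2662 for CB. Without the cells that had 5 or more of 16 macrophage markers at 10 CPM or more, the sums were 1236, 1639 and 2403 CPM. There were 0 such cells in mESC, 20 in CPCC, all of them in pool 2, and 4 in CB. They are called macrophage-marker cells below. The macrophage list was listed in part in mESC (5 of 16 markers) and in full in CPCC and CB. Its summed level was 35.1 to 40.2 CPM over the mESC pools, 8.38 and 7064 CPM in the CPCC pools, and 36.9 to 412 CPM over the CB pools. In CPCC pool 1 and in CB pool 2, 9 of the 16 markers were at 0. All 8 members listed in CPCC were higher in pool 2, which held the macrophage-marker cells, than in pool 1. In CB the lowest pool was pool 2 for all members but Ctsz. The part of these cells in the differences between cultures was not tested, and values without them are given beside the comparisons of the members and of the larger lists.

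Ctsd, the aspartic protease, stood at 118 CPM among mESC cells, at 1174 among CPCC cells and at 276 among CB cells. Its single pools reached 91.3 to 134 CPM in mESC, 133 and 2149 in CPCC, and 103 to 408 in CB. The 2 CPCC pools stood far apart, with pool 1 among the mESC pools and pool 2 above every other pool. At 1 or more counts, Ctsd was detected in 92.1% of mESC cells, 94.3% of CPCC cells and 83.6% of CB cells. Leaving out the macrophage-marker cells gave 243 CPM in CPCC and 257 in CB.

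For Ctsa, the carboxypeptidase, the level was 109 CPM in mESC, 252 in CPCC and 209 in CB. Its pools covered 96.2 to 126 CPM, 73.0 and 419 CPM, and 110 to 327 CPM, in the same order of cultures. The pools of the 3 cultures overlapped. Ctsa was detected in 90.7%, 91.4% and 81.5% of cells, and without the macrophage-marker cells CPCC had 102 CPM of it, within the range of the mESC pools.

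Ctsb, a cysteine protease with both endopeptidase and exopeptidase activity, was measured at 434 CPM in mESC, 1902 in CPCC and 707 in CB. In mESC its pools had 353 to 469 CPM. The CPCC pools had 239 and 3459 CPM, the CB pools 1147, 255 and 931. CPCC pool 1 and CB pool 2 lay below every mESC pool, and the other pools of these cultures lay above. Detection was 95.3%, 97.1% and 93.1% of cells. The 10 cells with the most Ctsb held 74.0% of its counts in CPCC, 16.1% in mESC and 35.6% in CB. The cells with 5 or more macrophage markers held 83.3% of the Ctsb counts of CPCC, and without them Ctsb had 368 CPM.

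Ctsl, an endopeptidase, was the member detected in the largest share of cells in each culture, with 96.3% in mESC, 97.7% in CPCC and 94.8% in CB. The lead over Ctsb was small, with 207 against 205 cells in mESC and 171 against 170 in CPCC. At 5 or more counts Ctsb was in 201 mESC cells and Ctsl in 199. The level of Ctsl was 460 CPM in mESC, 957 in CPCC and 999 in CB. Its pools had 410 to 492 CPM in mESC and 735 to 1269 CPM in CB, with no overlap. In CPCC they had 369 and 1507 CPM, on either side of the mESC range. The 10 cells with the most Ctsl held 40.6% of its counts in CPCC, and without the macrophage-marker cells CPCC had 616 CPM.

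Ctsc, Ctsh and Ctsz are cysteine proteases that act mainly as exopeptidases, and Ctsc activates the serine proteases of immune cell granules. The level of Ctsc was 43.7 CPM for mESC, 335 for CPCC and 164 for CB. Single mESC pools had 27.1 to 57.1 CPM, CPCC pools 35.4 and 615, and CB pools 86.3 to 247. The CB pools lay above all mESC pools, and CPCC pool 1 lay within the mESC range. The share of cells with Ctsc ran the other way between mESC (49.8%) and CB (39.2%), and after thinning every cell to 430000 counts it was 50.3% and 37.1%. Among cells with Ctsc the median was 61.8 CPM in mESC and 303 CPM in CB, so a smaller share of CB cells held Ctsc, at a higher median level. Without the macrophage-marker cells CPCC had 61.6 CPM of Ctsc.

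Ctsh, an aminopeptidase, was near 0 in mESC and present in both derived cultures. The mESC cells had 0.527 CPM (exact 95% Poisson interval 0.454 to 0.608), the CPCC cells 60.6 (59.7 to 61.5) and the CB cells 69.5 (68.6 to 70.4). It was detected in 3.26% of mESC cells (7 of 215, exact interval 1.32 to 6.59%), 28.6% of CPCC cells (22.0 to 35.9%) and 37.1% of CB cells (30.8 to 43.6%). Reads carry no molecular identifiers, so these intervals cover counting error only. Single mESC pools had 0.0194 to 1.22 CPM, CPCC pools 41.3 and 78.7, and CB pools 51.9 to 87.4. Every pool of the derived cultures lay above every mESC pool. The level of Ctsh without the macrophage-marker cells was 47.2 CPM in CPCC and 63.4 in CB.

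Ctsz, a carboxypeptidase, reached 70.9 CPM in mESC, 462 in CPCC and 238 in CB. Its mESC pools ran from 41.4 to 109 CPM, the CPCC pools had 168 and 739, and the CB pools 183 to 279. All pools of CPCC and CB lay above all mESC pools. It was detected in 76.3%, 93.7% and 76.7% of cells, and without the macrophage-marker cells CPCC had 201 CPM of Ctsz and CB 228.

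**Figure D1:**
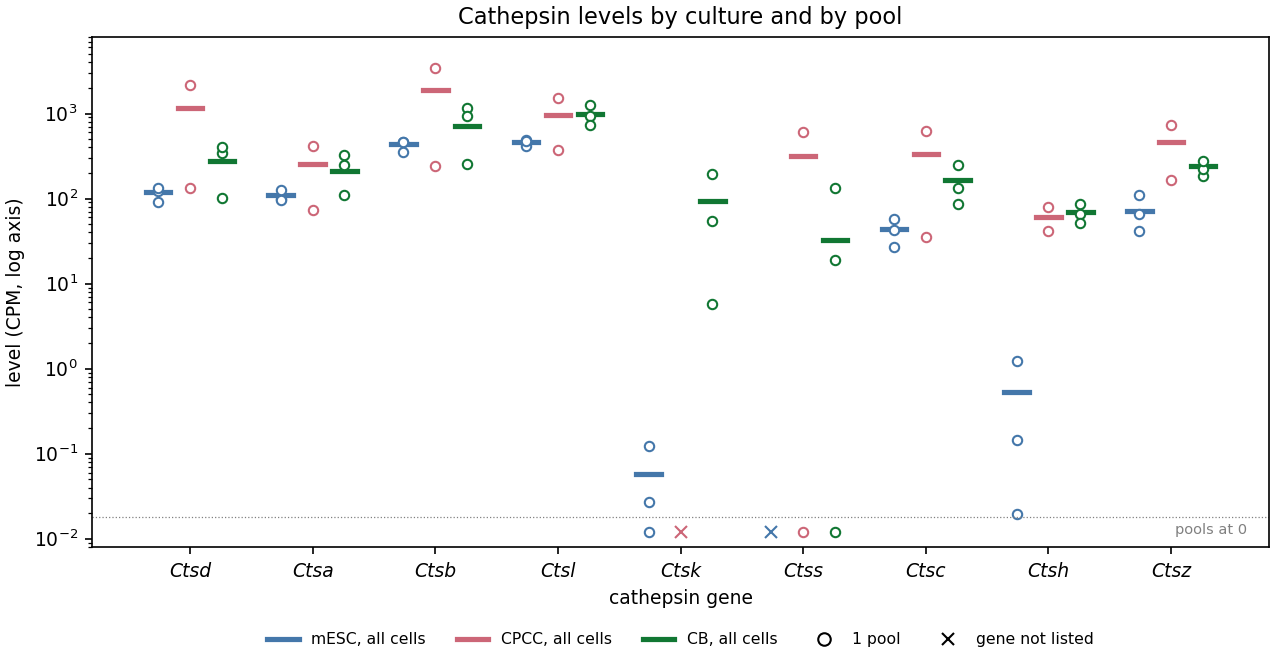
CPM of each cathepsin gene (log axis) in mESC, CPCC and CB; a bar is the level over all cells of a culture, an open circle 1 pool, and a cross a gene that is not listed. The CPCC pools of Ctsd (133 and 2149 CPM) and Ctsb (239 and 3459 CPM) stand further apart than the pools of mESC, while every CPCC and CB pool of Ctsh and Ctsz lies above the mESC pools.

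Ctss and Ctsk, the genes adjacent on chromosome 3, were found in the fewest cells of CPCC and CB. The level of Ctss was 316 CPM in CPCC and 32.6 in CB. It was at 0 in CPCC pool 1 (0 of 79 cells, which allows a share of up to 3.80%) and at 611 CPM in CPCC pool 2. The CB cells had 134 CPM in pool 1, 0 in pool 2 (0 of 78 cells, up to 3.85%) and 18.7 CPM in pool 3. The level of Ctss in each culture therefore came from part of the pools. Any Ctss was detected in 21.1% of CPCC cells (15.3 to 27.9%) and 3.02% of CB cells (1.22 to 6.12%). Thinned to 430000 counts per cell the CPCC share was 15.3%, and at 5 or more counts it was 11.4%. Ctss without the macrophage-marker cells was at 0.494 CPM in CPCC and 0.181 in CB.

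Ctsk reached 94.5 CPM in CB and 0.0569 in mESC, where 2 of 215 cells held it. Its CB level was 54.2 CPM in pool 1, 5.72 in pool 2 and 194 in pool 3. It was detected in 26.3% of CB cells (20.7 to 32.5%), with 26.1%, 6.41% and 44.7% of the cells of the 3 pools. All CB pools were above the mESC pools, the highest of which had 0.124 CPM. With the macrophage-marker cells left out CB had 95.7 CPM of Ctsk.

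**Figure D2:**
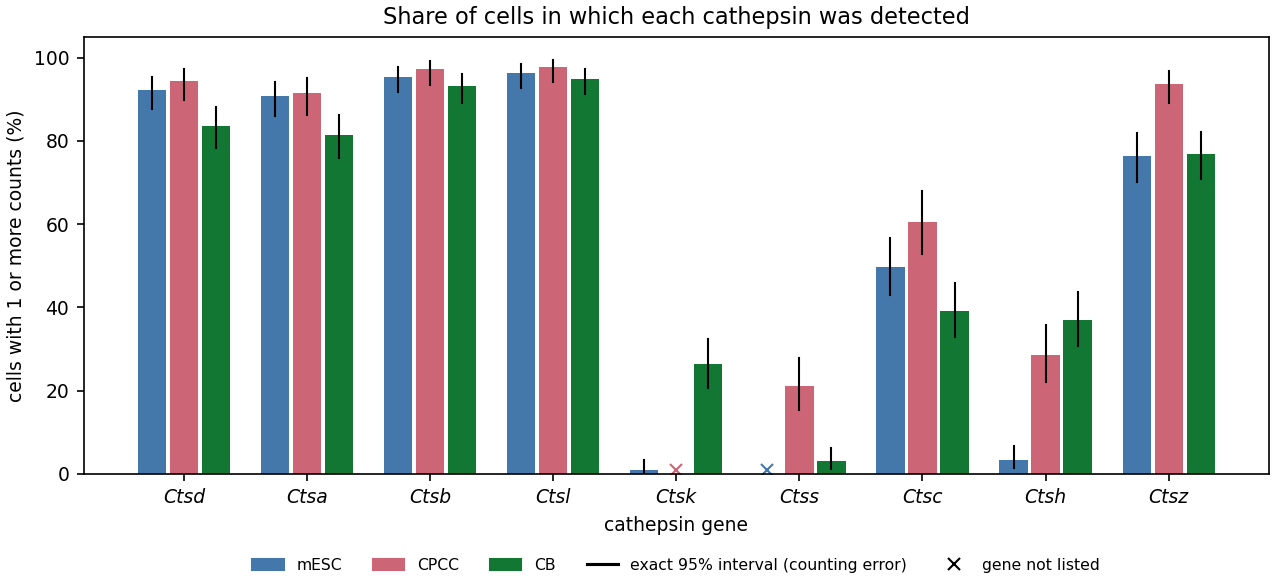
Share of cells (%) with 1 or more counts of each cathepsin gene in mESC, CPCC and CB; black lines are exact 95% intervals, which cover counting error only, and a cross marks a gene that is not listed. Ctsd, Ctsa, Ctsb, Ctsl and Ctsz were found in 76.3% of cells or more in each culture, Ctsk in 26.3% of CB cells and Ctss in 21.1% of CPCC cells.

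Of the members, 5 of 8 in mESC, 6 of 8 in CPCC and 5 of 9 in CB were detected in over 50% of cells. To compare members with each other, CPM were divided by the length of the shortest principal transcript in kilobases. In mESC, Ctsl led with 233 CPM per kb, followed by Ctsb with 91.4, Ctsd with 55.7, Ctsz with 49.2, Ctsa with 29.9, Ctsc with 17.5, Ctsh with 0.326 and Ctsk with 0.0377. The pool ranges of Ctsd and Ctsz, of Ctsz and Ctsa, and of Ctsh and Ctsk overlapped in this order, and those of the other 4 neighbours did not. In CPCC, Ctsd led with 552 CPM per kb, followed by Ctsl (485), Ctsb (401), Ctsz (321), Ctss (233), Ctsc (134), Ctsa (69.0) and Ctsh (37.5). The pool ranges of all 7 neighbours overlapped there. In CB, Ctsl led with 507 CPM per kb and stood apart from Ctsz (165), while the ranges of the other 7 neighbours overlapped, down to Ctss (24.1). The first place of Ctsl in mESC and CB rests on the transcript chosen, since with its longest principal transcript of 6.168 kb instead of 1.971 kb it had 74.6 and 162 CPM per kb. With that length it had 155 CPM per kb in CPCC, below Ctsd, Ctsb, Ctsz and Ctss.

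The first comparison asks how the cathepsin genes differed when stem cells had entered the precursor culture. All 7 members listed in both tables were at least 2-fold higher in CPCC than in mESC, beside 17.8% of the 11849 genes compared, and 0 were lower, beside 7.94%. Their log2 ratios of (CPM + 1) ran from 1.05 for Ctsl and 1.20 for Ctsa over 2.13 for Ctsb, 2.69 for Ctsz, 2.91 for Ctsc and 3.30 for Ctsd to 5.33 for Ctsh. That of Ctsh, which was at 0.527 CPM in mESC, turns on the pseudocount and was 2.75 with 10 CPM in place of 1. The median was 2.69, against 0.00 over all genes compared. In 2 of the 7, Ctsh and Ctsz, both CPCC pools also lay above all mESC pools, beside 14.4% of all genes (7.21% were lower with pools apart). Between single pools the ratio of Ctsb ran from -0.97 to 3.29 and was above 0 in 3 of 6 pairs of pools, and that of Ctsh from 4.26 to 6.29. Without CPCC pool 2 the count was 2 of 7 and the median -0.30, against 0.02 over all genes. Shares of all genes are not given, here or below, for settings that leave out a pool. Without the macrophage-marker cells 3 of 7 (Ctsd, Ctsh and Ctsz) were higher and 0 lower, beside 15.7% and 7.5% of all genes. The median was then 0.49, against 0.02 over all genes.

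The comparison of CB with mESC asks the same of the beating bodies. At least 2-fold higher in CB were 6 of 8 members, beside 31.4% of 12619 genes compared, and 0 were lower, beside 15.2%. The log2 ratios were 6.50 for Ctsk, 5.53 for Ctsh, 1.88 for Ctsc, 1.74 for Ctsz, 1.21 for Ctsd and 1.12 for Ctsl. Ctsa (0.93) and Ctsb (0.70) stayed below the threshold. Ctsk and Ctsh were so low in mESC that their ratios turn on the pseudocount, and with 10 CPM in place of 1 they were 3.38 and 2.92. The median was 1.48 against 0.27 over all genes, and 5 of the 8 (Ctsc, Ctsh, Ctsk, Ctsl and Ctsz) had all CB pools above all mESC pools, beside 25.3% of all genes. Without the macrophage-marker cells the count was also 6, beside 31.3% of all genes, with a median of 1.39 against 0.27. Scaling by DESeq2 size factors, which moved the median of all genes to 0.02, left Ctsd at 0.98 and Ctsl at 0.89, below the threshold. Without CB pool 3 the count was 4 and the median 0.998, against 0.27 over all genes.

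Between CB and CPCC, 4 of 8 members were at least 2-fold lower in CB, beside 10.1% of 12963 genes, and 0 were higher, beside 20.4%. They were Ctss (-3.24), Ctsd (-2.08), Ctsb (-1.43) and Ctsc (-1.03). Fewer were lower when cells were weighted equally, and fewer without CB pool 2. Ctsz (-0.95), Ctsa (-0.27), Ctsl (0.06) and Ctsh (0.19) stayed within 2-fold, but Ctsz passed it as a lower member under TMM scaling (-1.14) and under that of DESeq2 (-1.15). None of the 8 had pools of CB and CPCC apart, beside 5.96% of all genes lower and 12.8% higher with pools apart. The direction of this comparison turned without CPCC pool 2, when 6 of 8 were at least 2-fold higher in CB. The median over all genes was then 0.30. Ctss was among the 6, but CPCC pool 1 had 0 counts of it, so its ratio is set by the added 1 CPM. Without the macrophage-marker cells 0 of 7 were lower, beside 10% of all genes. Of the 7, 1 was higher, Ctsc with a log2 ratio of 1.27, beside 22% of all genes. The median was 0.63, against 0.20 over all genes. The 3 comparisons share samples and are not independent of each other.

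**Figure D3:**
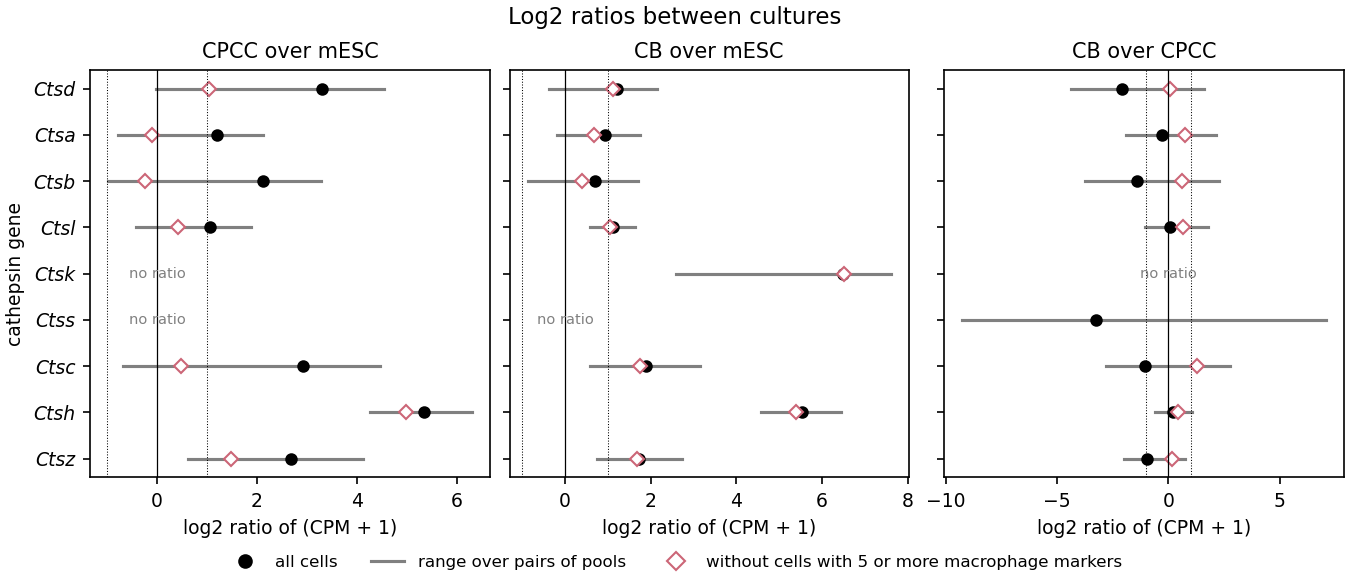
Log2 ratios of (CPM + 1) between cultures for each cathepsin gene; black points use all cells, grey lines span the ratios between single pools, open diamonds leave out cells with 5 or more macrophage markers, and dotted lines mark 2-fold. In CPCC over mESC the diamonds of Ctsa, Ctsb, Ctsc and Ctsl lie within 2-fold, and those of Ctsh and Ctsz do not.

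Cells were clustered within each culture with the 9 members left out of the genes used. In CPCC this gave 5 clusters. Cluster 3, led by Spp1, C1qb, C1qc, Fcrls and Apoe, held 14 cells and had 16 of 16 macrophage markers in most of its cells, so it is called macrophage-like. All 14 came from pool 2. Cluster 0 (66 cells, 57 of them from pool 1) had 10 of 10 pluripotency markers, and 7 of 10 epithelial markers, and is called pluripotent-like. The 10 genes with the highest fold in it held 0 pluripotency markers. Cluster 1 (55 cells, led by Acta2, Sparc and Tagln), cluster 2 (30 cells, led by Slc2a3, Car4 and Tdgf1) and cluster 4 (10 cells led by mitochondrial genes, with 57.0% mitochondrial counts) were left unnamed.

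These cells were not compared by a test, since a cluster is drawn from the same cells. The macrophage-like cells had the highest level of each of the 8 listed members among the 5 clusters, but for Ctsh this rested on 1 cell. That cell held 55.0% of the Ctsh counts of the cluster, and without it, a choice made after seeing the data, the level was 84.9 CPM, below the 109 CPM of the Acta2-led cluster. They had 13249 CPM of Ctsb, 8153 of Ctsd, 3369 of Ctsl, 2628 of Ctss, 2423 of Ctsz, 2387 of Ctsc, 1306 of Ctsa and 163 of Ctsh. In the other CPCC cells the levels were 437, 273, 645, 17.0, 209, 69.8, 116 and 47.4 CPM in the same order. All but Ctsh were detected in 14 of 14 cells, and Ctsh in 10 of 14. Per cell, Ctsb ran from 5789 CPM over a median of 10394 to 26615, and Ctss from 1176 over 2251 to 4691. These 14 of 175 cells held 95.2% of the Ctss counts of CPCC, 81.5% of Ctsc, 79.7% of Ctsb, 79.4% of Ctsd, 59.9% of Ctsz, 59.3% of Ctsa, 40.3% of Ctsl and 30.8% of Ctsh.

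The members differed among the remaining CPCC cells. The pluripotent-like cells were below the Acta2-led and Slc2a3-led clusters in all 8, with 178 CPM of Ctsl, 158 of Ctsb, 121 of Ctsz, 79.6 of Ctsd, 63.8 of Ctsa, 22.2 of Ctsc, 0.314 of Ctsh and 0.0491 of Ctss. Most of them came from pool 1 (57 of 66), while 28 of the 30 Slc2a3-led cells came from pool 2, and cells of pool 2 alone gave the same order in all 8. Much of the Slc2a3-led level came from its 3 macrophage-marker cells. Leaving these out took Ctsb there from 646 to 224 CPM, Ctsa from 174 to 76.4, Ctsc from 109.7 to 50.3, Ctsd from 273 to 138, Ctsh from 9.93 to 1.45 and Ctss from 112 to 0.126. Without such cells in either cluster the pluripotent-like cells were still the lower in the 7 members other than Ctss, which was then near 0 in both. The Acta2-led cluster had 1090 CPM of Ctsl, 633 of Ctsb, 448 of Ctsd, 288 of Ctsz and 109 of Ctsh. It held 66.9% of the Ctsh counts of CPCC, and 32 of its 55 cells had Ctsh. Its 19 cells of pool 1 had 158 CPM of Ctsh, of which 3 cells were above 100 CPM and 11 at 0, and its 36 cells of pool 2 had 84.6 CPM, of which 8 were above 100 CPM and 12 at 0. Ctsh and Ctsl were the members with under 50% of their CPCC counts in the macrophage-like cells.

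In CB there were 4 clusters. Cluster 1 (80 cells, led by Col3a1, Col1a2, Lum, Col1a1 and Sparc) had 9 of 10 fibroblast markers in most cells and is called collagen-led here, because the 10 genes with the highest fold in it held a smooth muscle marker and no fibroblast marker. Cluster 2 (43 cells, led by Wfdc2 and Upk1b) had 10 of 10 epithelial markers, and 5 of 10 fibroblast markers, and is called epithelial-like. Cluster 3 (20 cells, led by Ramp2, all from pool 2) had 10 of 10 endothelial markers and is called endothelial-like. Cluster 0 (89 cells, led by Stmn1, Hmgb2 and histone genes) was left unnamed.

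Ctsk was highest in the collagen-led cells, with 253 CPM against 8.78 CPM in all other CB cells. They held 94.0% of the Ctsk counts. The epithelial-like cells had 10.3 CPM, the Stmn1-led cells no more than that and the endothelial-like cells 0.0688. Within the collagen-led cells the level differed between pools, with 91.1 CPM in 34 cells of pool 1 and 319 CPM in 46 cells of pool 3. Pool 2, in which Ctsk was low, held no collagen-led cell. The part of this in the pool difference of Ctsk was not tested.

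The same cells also had the highest levels of Ctsl (1458 CPM), Ctsb (1374 CPM), Ctsd (453 CPM), Ctsa (373 CPM) and Ctsz (328 CPM) in CB. Without their 3 macrophage-marker cells these were 1353, 1004, 407, 275 and 302 CPM, still the highest. Ctsc and Ctsh were highest in the epithelial-like cells instead, with 305 and 143 CPM. All other CB cells together had 131 CPM of Ctsc and 52.4 of Ctsh. Few Stmn1-led cells carried the level there, since 21 of 89 had Ctsh, and 7 of its 58 cells of pool 2 had at least 100 CPM. The highest of them had 830 CPM, above the 542 CPM of the highest epithelial-like cell. Ctsh was detected in 34 of 43 epithelial-like cells and in 26 of 80 collagen-led cells. The pools that held epithelial-like cells had similar levels there, with 138 CPM in 11 cells of pool 1 and 144 CPM in 32 cells of pool 3. The endothelial-like cells had the lowest Ctsz (97.1 CPM), Ctsc (56.5 CPM) and Ctsh (40.0 CPM) of the 4 clusters. Of their counts, the same cell held 58.8% for Ctsc and 43.8% for Ctsh, and without it the levels were 24.5 and 23.7 CPM.

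**Figure D4:**
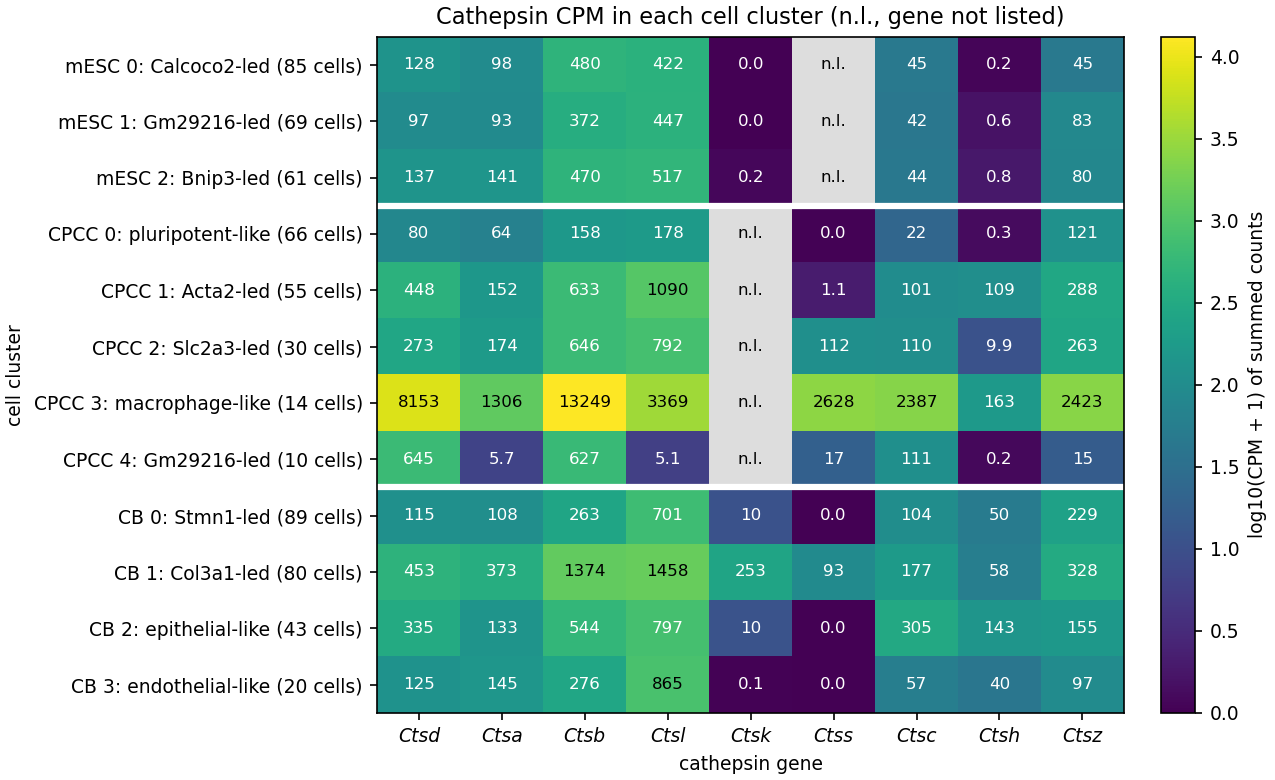
CPM of summed counts of each cathepsin gene (columns) in each cell cluster (rows) of mESC, CPCC and CB, with the colour on a log10(CPM + 1) scale; n.l. means not listed. The macrophage-like CPCC cluster is highest in the 8 listed genes, for Ctsh (163 CPM) only with 1 cell that holds 55.0% of its counts, and in CB Ctsk peaks in the Col3a1-led cluster (253 CPM) and Ctsh in the epithelial-like cluster (143 CPM).

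Ctss and Ctsk were then compared cell by cell, taking 10 CPM or more as a clear level. In CPCC, 21 of 175 cells had Ctss (exact interval of the share 7.58 to 17.8%), all of them from pool 2. Of these, 14 were the macrophage-like cells, and 18 of 21 had 5 or more macrophage markers. The median number of macrophage markers was 16 of 16 in cells with Ctss and 0 in cells without. The median number of fibroblast markers was 0 of 10 in cells with Ctss and 1 in cells without. The 3 Ctss cells of cluster 2 carried 15 or 16 macrophage markers, and 2 of them also had 9 of 10 pluripotency markers at 10 CPM or more. In the pluripotent-like cluster, which serves as background, none of the 57 cells of pool 1 and 3 of the 9 cells of pool 2 had any Ctss, at no more than 2.57 CPM.

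In CB, 4 of 232 cells had Ctss (1.72%, 0.472 to 4.36%) and 52 had Ctsk (22.4%, 17.2 to 28.3%). A single cell, 1 of 232, had both, 1.82% of the 55 cells with either, with 4098 CPM of Ctss and 88.5 CPM of Ctsk. This cell held 67.2% of the Ctss counts of CB, and without it Ctss had 10.7 CPM. All 4 Ctss cells fell in the collagen-led cluster. They had 4098, 1835, 1001 and 91.1 CPM of Ctss, and the first 3 had 14, 16 and 16 macrophage markers beside 4, 7 and 8 fibroblast markers. The cell with most Ctss also had the most Ctsb (20997 CPM), Ctsl (6593 CPM), Ctsa (6323 CPM) and Ctsd (2133 CPM) of all CB cells. With so few cells, 1 shared cell in 4 allowed a share of Ctss cells with Ctsk between 0.631 and 80.6%.

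Of the 52 Ctsk cells of CB, 41 were collagen-led cells, 7 Stmn1-led, 3 epithelial-like and 1 endothelial-like. That was 41 of 80 collagen-led cells, and no more than 7.87% of the cells of another cluster. Cells with Ctsk had a median of 8 of 10 fibroblast markers at 10 CPM or more, and cells without it 2. The median number of macrophage markers was 0 of 16 in cells with Ctsk and also in cells without it. Over the 232 cells the Spearman correlation of Ctss and Ctsk was -0.01, a value that rests on 7 cells with any Ctss.

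**Figure D5:**
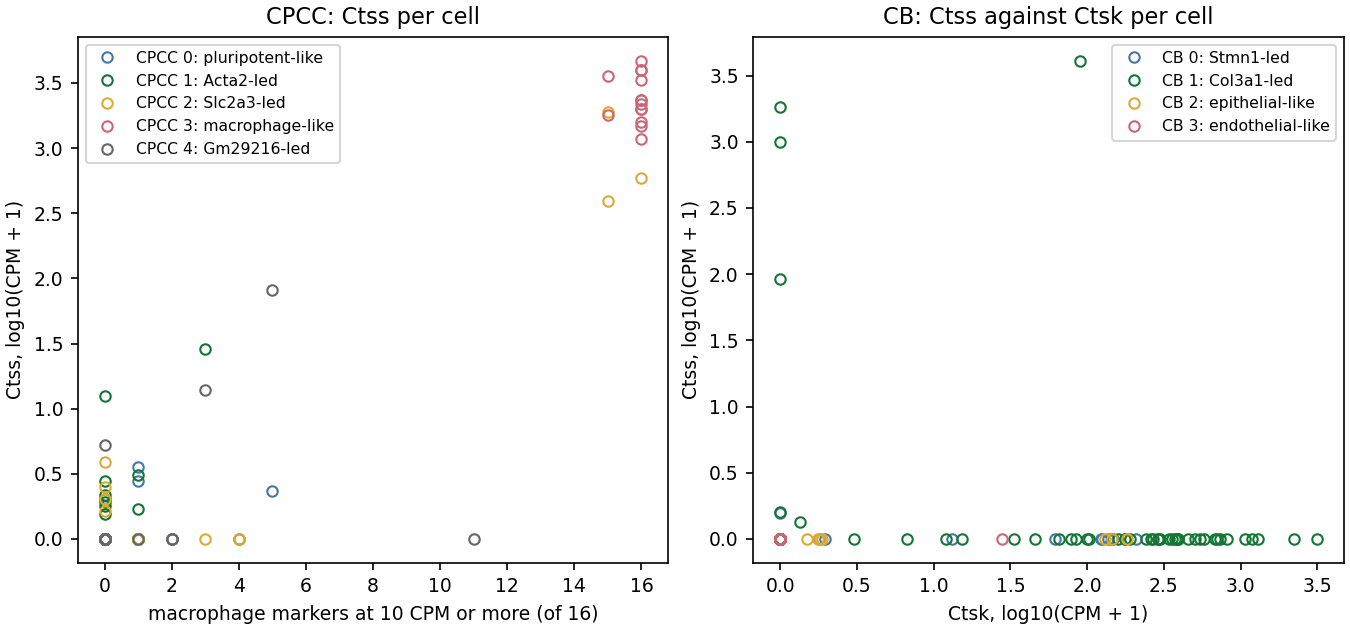
Left, Ctss per CPCC cell as log10(CPM + 1) against the number of 16 macrophage markers at 10 CPM or more; right, Ctss against Ctsk per CB cell, both as log10(CPM + 1); each circle is 1 cell, coloured by cluster. The CPCC cells with most Ctss carry 15 or 16 markers, and in CB 1 cell has both genes at 10 CPM or more.

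The genes most like Ctss and Ctsk were ranked by the Spearman correlation of CPM over the cells of a culture, among genes found in at least 10% of the cells. In CPCC the 5 genes nearest to Ctss over 175 cells were Cx3cr1 (0.78), Trem2 (0.77), Ms4a6d (0.76), Ccl3 (0.76) and Lilrb4a (0.74), of which Cx3cr1 and Trem2 are on the macrophage list. In CB the 5 nearest to Ctsk over 232 cells were Nkd2 (0.58), Bgn (0.51), Cd63-ps (0.50), Col1a2 (0.49) and Cd63 (0.49). Bgn and Col1a2 encode matrix proteins, and Cd63-ps and Cd63 cannot be told apart with certainty because a pseudogene shares sequence with its parent. The cells share pools and differ in depth, so the values describe the data only. For Ctss in CB, which 7 cells held, the highest value was 0.42 and is not read further.

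The 7 members listed in all tables were also compared with each other over cells. Among their 21 pairs the median Spearman correlation in mESC was 0.16, with pairs from -0.03 to 0.37. For CPCC the median was 0.53, with pairs from 0.25 to 0.74, and for CB it was 0.25, with pairs from 0.17 to 0.44. The closest pair in CPCC was Ctsb with Ctsl. Without the macrophage-marker cells the CPCC median was 0.38. After the cell filter (at least 100000 counts and 2000 genes, and at most 20% mitochondrial counts) the mESC median was 0.06, and which of the 3 criteria moved it was not tested.

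The remaining genes of the lysosome were described with lists chosen for their roles. Among cathepsins outside the 9, which include placental and lymphoid members, 1 of 15 could be compared with mESC in both cultures. This was Ctsf, at 12.6 CPM in mESC, 15.6 in CPCC and 30.1 in CB. Ctso was listed in the derived cultures alone, at 19.8 CPM in CPCC and 40.5 in CB. Of 4 protease inhibitors that could be compared, 1 was at least 2-fold higher in CPCC than in mESC and 2 in CB, with none lower, beside 17.8% and 31.4% of all genes higher. Cst3, the secreted cystatin C, was at 277 CPM in mESC, 525 in CPCC and 604 in CB. Cstb, the cytosolic cystatin B, was at 247, 260 and 269 CPM. Serpinb6a was at 104.7, 133 and 115 CPM, and Serpinb9, an inhibitor of granzyme B, at 2.34, 35.0 and 24.6 CPM.

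In CPCC over mESC, 16 of 32 lysosomal hydrolases compared were at least 2-fold higher and 1 lower, with a median log2 ratio of 0.90, beside 17.8% of all genes higher and 7.94% lower. The highest was Arsb (4.69), a sulfatase, and the lowest Acp5 (-2.33), an acid phosphatase. Of 17 lysosomal membrane proteins 12 were higher and 0 lower (median 1.12), led by Cd68 (3.78), a macrophage glycoprotein. Without the macrophage-marker cells 7 of 29 hydrolases and 3 of 17 membrane proteins were higher, beside 15.7% of all genes, and 3 and 1 were lower, beside 7.5%. The hydrolase median was then 0.30 and that of the membrane proteins 0.57. Of the proton pump subunits 3 of 16 were higher and 0 lower (median 0.23), and 1 of 16 was higher when those cells were left out. Of the genes for sorting to the lysosome 1 of 14 was higher, Sort1 (2.77), and 1 lower, Igf2r (-2.33), a receptor that carries enzymes tagged with mannose phosphate.

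In CB over mESC, where 31.4% of all genes were higher and 15.2% lower, 17 of 32 hydrolases were higher and 3 lower (median 1.15), and 9 of 17 membrane proteins were higher and 1 lower (median 1.04), led by Lamp2 (2.79). Without the macrophage-marker cells 16 and 8 were higher and 3 and 1 lower, beside 31.3% and 15.2% of all genes. Of the pump subunits 3 of 16 were higher and 1 lower (Atp6v1c1, -1.06), with a median of 0.30 against 0.27 over all genes. Between CB and CPCC, 2 of 32 hydrolases were higher and 6 lower, beside 20.4% and 10.1% of all genes, with Manba at -2.08. Of the membrane proteins 2 of 17 were higher and 3 lower, with Cd68 the lowest at -2.66. Leaving out the macrophage-marker cells gave 10 of 32 hydrolases and 5 of 17 membrane proteins higher and 1 of each lower, beside 22% and 10% of all genes.

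Of the regulators, 3 of 9 compared were at least 2-fold higher and 2 lower in CPCC than in mESC, and 3 of 7 were higher and 2 lower in CB than in mESC, beside 17.8% and 7.94%, and 31.4% and 15.2%, of all genes. The 3 higher in CPCC were Spi1, Irf8 and Nfatc1. With the macrophage-marker cells left out, 1 of 7 was higher and 2 lower in CPCC, beside 15.7% and 7.5% of all genes. Tfeb, which drives the CLEAR network, was at 16.8 CPM in mESC, 7.01 in CPCC and 2.13 in CB, the reverse of the order of most members between mESC and the derived cultures. Tfe3, a relative of Tfeb, was at 23.9, 32.8 and 21.1 CPM. Spi1, which is also on the macrophage list, was at 1.48, 46.6 and 3.44 CPM. Nfatc1, a factor known upstream of Ctsk in osteoclasts, was at 0.658, 6.68 and 20.04 CPM. These are levels of RNA in 3 samples, and no link between a regulator and a member was tested.

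The gene tables were made in Partek Flow with a counting model and use of strand that were not stated, and some members share exons with other genes in the annotation. Ctsd shares 808 exon bases with Gm49369 on its own strand, and Ctsl shares 1742 with the antisense gene Gm47123 and 395 with the pseudogene Gm49230. Ctsb shares 774 bases with Fdft1 and Ctsa 495 with Pltp, both on the opposite strand. Levels of these members are uncertain to the extent that such reads were assigned to them.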

How the data were processed

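The authors aligned the reads to GRCm38 (mm10) with STAR 2.7 in Partek Flow and Ensembl 97 annotation, and deposited 1 gene table per culture. In mESC and CB 26.4% and 27.4% of the values above 0 differed from a whole number by more than 0.001, so these deposited values are estimated counts. The CPCC table held whole counts as deposited. They were used without scaling and rounded for thinning, edgeR 4.0.16 and DESeq2 1.42.0. The CPCC table had 208 unnamed rows, 23 symbols turned into dates (0.139% of counts) and 2 columns with no values and no sample, all left out. Tables were linked to samples by culture name.

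Counts were summed per culture and scaled to CPM (Python 3.11.15, pandas 2.3.3, scipy 1.17.1). Ratios are log2 of (CPM + 1), which understates low genes, for genes listed in both tables with at least 5 CPM in 1 of them, and were called at an absolute value of 1. With 1 sample per group no test and no p-value is given. Shares above 0 carry exact Clopper-Pearson and levels exact Poisson 95% intervals, and the limit beside a share of 0 is 3 counts over the number of cells. Clustering used Seurat 5.3.0, members left out, with a scale factor of 10000, 10 components and a resolution of 0.6. No doublet caller was run, and chambers that held several cells could not be told from the columns. The ratio and ranking steps were checked on simulated counts. Alternatives were other scalings, pseudocounts, filters, cell weights and cluster settings, and leaving out each pool. The members and gene lists were chosen with earlier results of these data known. Named genes are the members, markers, inhibitors, regulators, leading cluster genes, the extremes of each list and the 5 genes most like Ctss and Ctsk.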

Additional observations from a re-analysis of the deposited data

How the results depend on the processing

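No paired analysis was possible because each group has 1 sample, column names hold no replicate number and nothing was tested. The median log2 ratio of the members for CPCC over mESC was 2.66 with DESeq2 size factors, 2.53 when cells were weighted equally and 2.55 when 10 CPM were added instead of 1. That for CB over mESC was 1.31 with TMM factors, 1.25 with DESeq2 size factors, 1.4999 when cells were weighted equally, 1.39 when 10 CPM were added and 1.46 after the cell filter. That for CB over CPCC was -1.18 with TMM factors, -1.19 with DESeq2 size factors, -0.75 when cells were weighted equally (2 members lower), -0.96 when 10 CPM were added and -0.97 with totals that leave out mitochondrial and the 20 most abundant genes. TMM and DESeq2 factors moved the median of all genes from 0.27 to 0.08 and 0.02 for CB over mESC, and from 0.18 to -0.02 and -0.03 for CB over CPCC.

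Leaving out the macrophage-marker cells, an alternative chosen after seeing the data, gave medians of 0.49 (3 members higher), 1.39 and 0.63 (0 lower). It turned Ctsa to -0.10 and Ctsb to -0.24 for CPCC over mESC, and Ctsb to 0.63, Ctsc to 1.27 and Ctsd to 0.0795 for CB over CPCC. It gave summed levels of 1639 CPM in CPCC and 2403 in CB, and 0 cells with both Ctss and Ctsk. The summed level in mESC was 1232 CPM without the cell with the most counts, 1178 as a mean over cells and 1258 after the filter. For CPCC these were 4511, 3878 and 5213 CPM, and for CB 2472, 2526 and 2685 CPM.

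Leaving out each pool in turn moved the CPCC over mESC median between -0.30 and 3.36 (2 to 7 members higher), with Ctsa between -0.57 and 1.93, Ctsb between -0.85 and 2.99, Ctsc between -0.30 and 3.79, and Ctsl between -0.32 and 1.71. The low ends came without CPCC pool 2 and the high ends without CPCC pool 1. For CB over mESC the median ran from 0.998 without CB pool 3 to 1.75 without CB pool 2, with 4 to 8 members higher. For CB over CPCC it ran from -1.77 without CPCC pool 1 to 1.47 without CPCC pool 2, with 0 to 6 members higher and 0 to 6 lower (2 lower without CB pool 2). There Ctsb ran from -2.29 to 1.56, Ctsc from -1.90 to 2.18, Ctsd from -2.96 to 1.05 and Ctss from -4.88 to 5.07, where the high end is against CPCC pool 1 with 0 counts of Ctss and is set by the added 1 CPM. The cause was not tested. With 1 sample per group, and no source used here that gives the culture behind each pool, the spread between cultures could not be measured. In any cell under 100000 counts, 10 CPM is less than 1 count, so 1 count of a member or marker passes as a clear level. The 8 mESC, 1 CPCC and 9 CB cells under 10000 counts are only part of these. A CPCC cell of cluster 4 that was counted among those with Ctss had 77662 counts and 12.9 CPM of Ctss. The median of that cluster was 76816.5 counts, so its numbers of macrophage markers can rest on single counts.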
